A study of Mus musculus with 4 samples.

Results

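Induced pluripotent stem (iPS) cells made from mouse club cells were compared with club cells as isolated from adult lung, gene by gene, as the log2 signal of the iPS array minus that of the Day0 array. Every probe set with a gene symbol was read, 23185 of the 25206 on the array. Of these, 13344 genes (57.6%) were kept because the brighter of the Day0 and iPS arrays reached 6.67, which is the median over all probe sets of the 4 arrays in the series, and 9841 were too dim on both.

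The study interrupted the reprogramming of club cells partway and set the resulting cells beside the starting cells and the iPS end point. RNA of 4 populations was hybridised to Affymetrix arrays, 1 array each. Day0 is given in the labels as freshly isolated club cells of adult mouse lung. The array titled 3w+Dox holds cells cultured with doxycycline (an antibiotic used to induce transgenes) for 3 weeks, and 3w+Dox+2w-Dox holds such cells after 2 further weeks without the drug. The iPS array holds cells that the labels name Club-iPS, of lung origin, with no passage, clone or culture medium given. The labels used here do not state the genotype, sex or number of the mice, the gate for the isolate or any feeder layer. With 1 array a population there are no replicates, so each value below is a single measurement, its error is unknown and no p-value was computed. Precision is limited by the number of arrays.

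Club cells are secretory cells of the conducting airways. They release secretoglobins and antimicrobial proteins and carry a dense set of enzymes that oxidise and conjugate inhaled chemicals. Pluripotent cells are held in self-renewal by the transcription factors Pou5f1 (Oct4), Sox2 and Nanog and their partners, divide with short gap phases, and keep germline genes and transposons in check with a particular set of DNA methylation proteins.

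Several short regulatory sequences accompany the gene groups described below and are shown first. The microRNA gene that was called higher in iPS, Mir290a, belongs to a cluster known for its activity in pluripotent cells. Its guide strand shares the stretch AAGUGC with the Mir302 guide strands shown here, and the Mir19 microRNAs belong to the Mir17 to Mir92 cluster linked to proliferation. In the mature sequences the capitals mark the seed, bases 2 to 8, which pairs with targets. The sequences are from RefSeq (GRCm38.p6).
mmu-miR-290a-3p (chr7:3218674-3218697, plus strand): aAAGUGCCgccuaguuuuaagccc
mmu-miR-302b-3p (chr3:127545275-127545297, plus strand): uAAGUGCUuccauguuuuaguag
mmu-miR-302d-3p (chr3:127545665-127545687, plus strand): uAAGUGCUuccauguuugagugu
mmu-miR-19a-3p (chr14:115044048-115044070, plus strand): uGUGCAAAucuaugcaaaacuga
mmu-miR-19b-3p (chr14:115044358-115044380, plus strand): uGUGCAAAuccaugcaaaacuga

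The second set shows promoter stretches of genes from 4 of the groups, with a motif match in capitals, in the direction of transcription and with RefSeq coordinates on GRCm38.p6. The Nanog stretch holds a match, read on the other strand, to the joint Sox2 and Oct4 motif, CATTGT and ATGCAAA with 1 base of any kind between them. Kif11, a mitotic kinesin, holds TTTGAA on the other strand, the core of the cell cycle homology region that keeps mitotic genes silent outside division. In Stag3, a meiotic cohesin subunit, the capitals mark CACGTG, the E-box bound by repressors of germline genes. Those in Sntn, a protein of the ciliary tip, and Dynlrb2, a dynein light chain, mark GTTGCC, the core of the X-box read by the RFX factors of ciliated cells.
Nanog (chr6:122707384-122707457, plus strand): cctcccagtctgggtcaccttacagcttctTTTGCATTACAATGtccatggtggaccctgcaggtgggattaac
Kif11 (chr19:37376333-37376381, plus strand): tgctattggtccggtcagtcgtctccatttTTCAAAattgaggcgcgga
Stag3 (chr5:138280309-138280374, plus strand): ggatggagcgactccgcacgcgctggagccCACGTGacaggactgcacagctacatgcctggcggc
Sntn (chr14:13670780-13670845, plus strand): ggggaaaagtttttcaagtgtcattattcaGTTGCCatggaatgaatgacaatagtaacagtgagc
Dynlrb2 (chr8:116504934-116504999, plus strand): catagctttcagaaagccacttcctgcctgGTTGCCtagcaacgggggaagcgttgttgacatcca

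A gene was counted as higher or lower in iPS (called) when the arrays differed by at least 2 on the log2 scale, a 4-fold difference, and the brighter one reached 6.67. By this rule 1134 genes were higher in iPS, 4.89% of the named genes, and 1368 were lower, 5.9%. Both directions together made 2502 genes, 10.8% of the named and 18.8% of the kept genes. Of the kept genes 8.5% were higher and 10.3% lower, the closer reference for lists whose members mostly passed the filter. The median difference was 2.92 among the higher and -2.89 among the lower genes, while the median over all named genes was 0.0031. Differences of at least 16-fold were found for 235 higher and 296 lower genes. At 64-fold or more the balance moved further toward losses, with 16 higher and 64 lower. Of the kept genes, 7421 (55.6%) lay within 2-fold. Ikzf2 at -1.999 and Msto1 at 1.999 stood outside the threshold, and Scarb1 and Marveld2 just inside it. In 345 called genes the dimmer array lay below the 25th percentile of all values (5.07), close to the background of the array, where a difference is compressed.

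**Figure D1:**
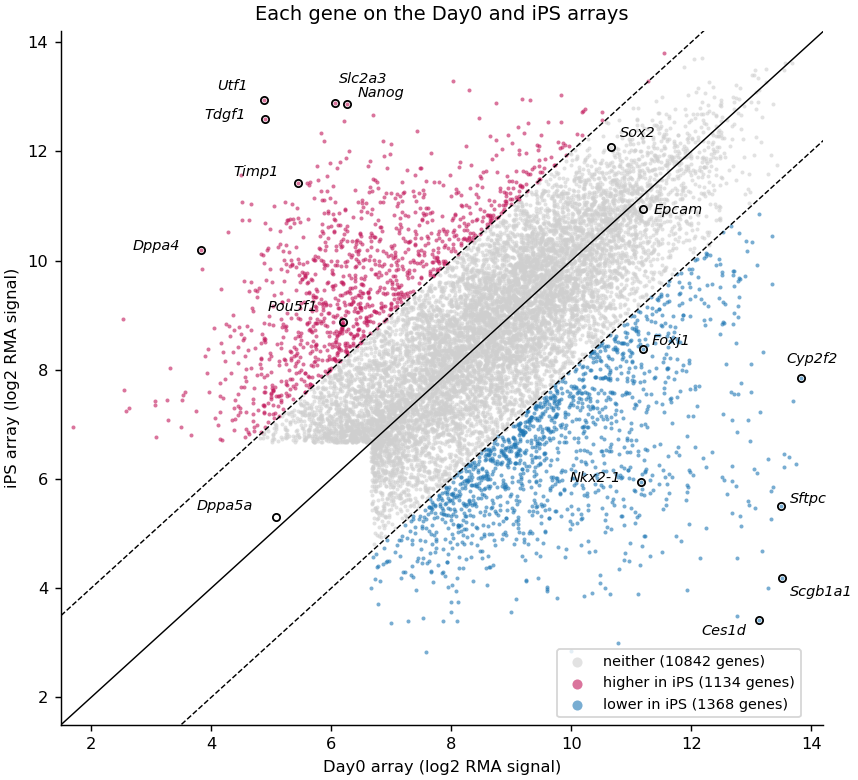
Each point is 1 gene kept by the brightness filter, with its log2 RMA signal on the Day0 array across and on the iPS array up; the solid line marks equal signals, the dashed lines a 4-fold difference, and circles the labelled genes. The 1368 lower genes reach further from the diagonal (Ces1d and Scgb1a1, lower right) than the 1134 higher ones (Utf1 and Tdgf1, upper left); Dppa5a, below the filter, is drawn for reference.

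Markers of other cells moved with some of the groups below, and their values are given here. On the iPS array 27 of 31 measured fibroblast and feeder cell genes lay at or above 6.67, against 10 on Day0 and 30 on each of the cultures with and after doxycycline. Their summed linear signal was 4742 on Day0 and 46309 on iPS, and 133444 and 135781 on the cultures. The Day0 array also carried 41 of 43 ciliated, 25 of 25 alveolar type 2 and 18 of 22 alveolar type 1 cell genes at or above 6.67. On iPS 14, 12 and 12 of these were. As 6.67 is the median of all values, reaching it does not alone show that a cell type was present. The part of these other cells in each result was not tested. In bulk RNA, fewer cells of a type and less RNA per cell cannot be told apart.

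**Figure D2:**
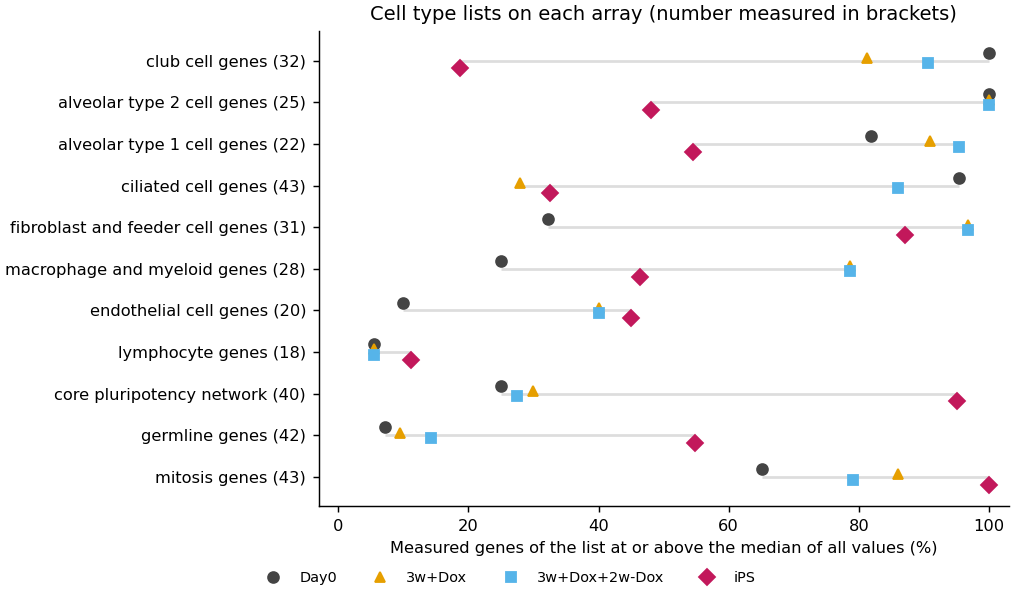
For each gene list (rows), the points give the percent of its measured genes whose log2 RMA signal was at or above 6.67 on each of the 4 arrays. Day0 and iPS lie at opposite ends for the club cell, pluripotency and germline lists, while for the fibroblast and feeder list iPS (27 of 31) lies near the cultures (30 of 31) and far from Day0 (10 of 31).

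The 20 genes furthest below their Day0 level in iPS included many products of airway secretory cells and the alveolar type 2 genes Cxcl15, Sftpc and Sftpa1, described with their list below. Ces1d, a carboxylesterase, read 13.13 on Day0, 9.72 on 3w+Dox, 11.61 after withdrawal and 3.41 on iPS, an 843-fold decrease. Scgb1a1, the main secretoglobin of club cells, read 13.52, 12.62, 13.04 and 4.18 on the same arrays, a difference of -9.33 or 645-fold. Bpifa1, an antimicrobial airway protein, read 13.28, 6.67, 8.28 and 4.01. The 3 genes were dimmest on iPS, and the cultures stood between it and Day0 at unlike heights. Pon1, a lipoprotein-associated lactonase, fell by 9.27 on the log2 scale, Cyp2b10, a phenobarbital-inducible P450, by 8.21, and Sec14l3, a lipid transfer protein of airway cells, by 8.06.

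Of 32 measured club cell genes, 30 were lower in iPS, 0 were higher, and the median difference was -6.81, beside 5.9% of all named genes lower and the median of 0.0031. Scgb3a2, a second secretoglobin, read 10.21, 6.25, 8.81 and 3.86 on the 4 arrays in the order Day0, 3w+Dox, 3w+Dox+2w-Dox and iPS, which is kept from here on. Cyp2f2, the P450 that activates naphthalene in club cells, read 13.83, 12.44, 13.45 and 7.86. Aldh1a1, a retinaldehyde dehydrogenase, read 13.74, 12.91, 11.88 and 6.28. Cyp2f2 thus stayed above the median of all values on the iPS array, and Scgb3a2 lay well below it. The uncalled members were both glutathione transferases: Gsta4 at 12.44 on Day0 and 12.01 on iPS, and Gsto1 at 12.39 and 11.04. Sult1d1, a sulfotransferase, stood at 10.78 on Day0 and near 3 on each of the others (3.15, 2.91 and 3.00), so its signal was already at that level in the cultures.

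**Figure D3:**
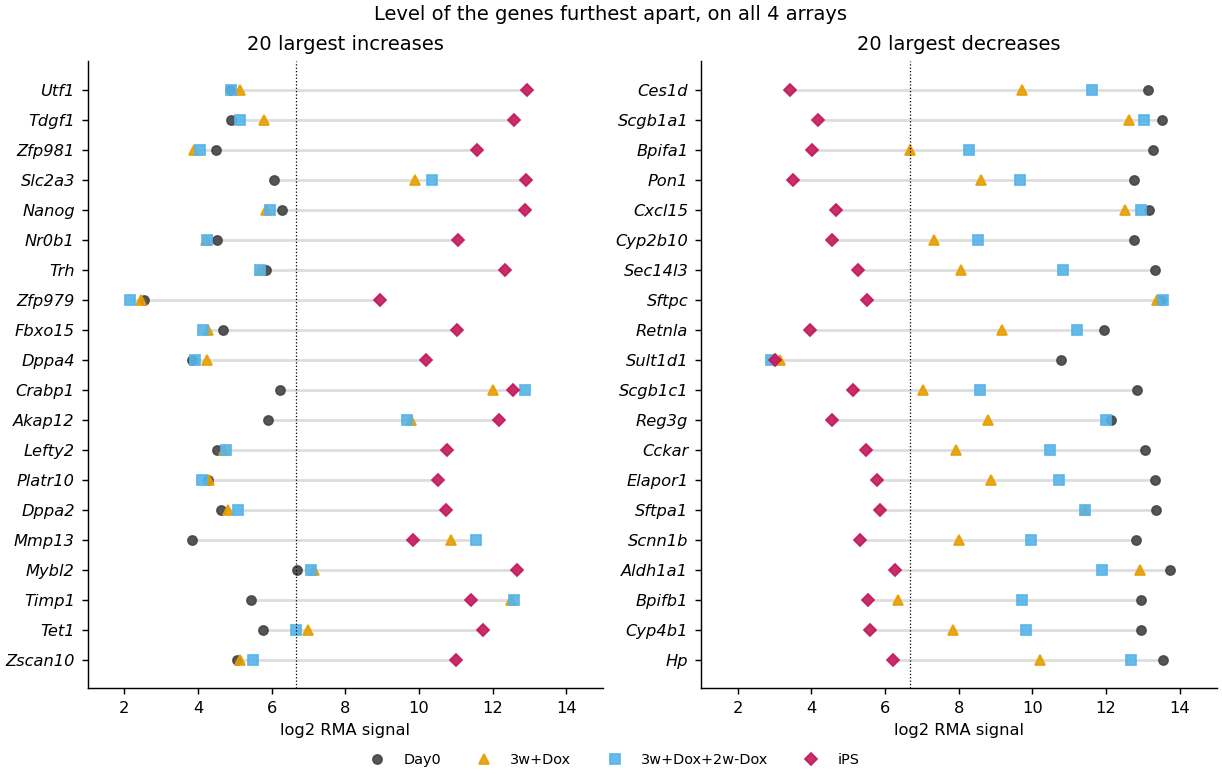
The 20 genes with the largest increase (left) and decrease (right) from Day0 to iPS, with the log2 RMA signal of each on the 4 arrays across; the dotted line marks 6.67. Most increases, such as Utf1 and Nanog, appear on the iPS array alone, whereas Crabp1, Mmp13, Timp1, Akap12 and Slc2a3 were also bright in the cultures; among the decreases the cultures lie at many heights, mostly between iPS and Day0, with Sftpc near Day0 and Sult1d1 near iPS.

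Enzymes that handle foreign chemicals followed the club cell genes, which share members with their list. Of 44 measured, 29 were lower and 1 was higher, with a median of -3.74. Cyp4b1, a P450 of lung that oxidises fatty acids and aromatic amines, read 12.94, 7.85, 9.84 and 5.60. Cbr2, a carbonyl reductase abundant in lung, read 13.63, 12.58, 13.09 and 6.41. Cyp1a1, inducible by dioxins, and Cyp2e1, inducible by ethanol, differed by -0.20 and 0.09 and were dim on both arrays.

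Neighbouring genes were also read in chromosome order of the RefSeq genes. The longest runs of adjacent named genes called in 1 direction held 4 genes, 1 run higher and 3 lower. The run Ces1d, Ces1e, Ces1f and Ces1g, all carboxylesterases, was lower with a median of -5.99, and Fmo4, Fmo1, Fmo2 and Fmo6, flavin monooxygenases, with -3.74. Fmo2, the main form in lung, read 12.74, 7.08, 8.84 and 5.87. The paraoxonases Pon1, Pon3 and Pon2 formed a run of 3 genes, with differences of -9.27, -5.85 and -3.57. Members of such families are similar in sequence, and how far their probes share signal was not tested.

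Of 28 measured ion and water transport genes of airway epithelium 15 were lower on iPS and 1 was higher, with a median of -3.01. The 3 subunits of the epithelial sodium channel, which draws fluid off the airway surface, moved alike. Scnn1a read 12.52, 11.87, 11.09 and 6.04, Scnn1b 12.81, 8.01, 9.96 and 5.31, and Scnn1g 12.25, 8.13, 9.52 and 6.21. Aqp5, a water channel of alveolar and glandular cells, fell by 5.91 and Kcnk2, a potassium channel, by 5.06. In the cultures Scnn1a stayed within 2-fold of Day0 only with doxycycline, while the other subunits were lower there.

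Genes of alveolar type 2 cells, which make surfactant, were lower for 21 of 25 measured members, with a median of -4.44. Sftpc, a surfactant protein, read 13.49, 13.39, 13.54 and 5.50. Its signal in the cultures was thus near that of Day0, and on iPS it was far lower. The Day0 and culture values lie close to the brightest of their arrays. Whether signals this bright hide a difference in RNA was not tested. Cxcl15, a lung chemokine, read 13.17, 12.51, 12.96 and 4.68. Cd36, a fatty acid transporter, fell by 7.30 and Slc34a2, a phosphate transporter, by 6.72. The 3 uncalled members were Fasn, fatty acid synthase, at 0.25, Lpcat1, which remodels phosphatidylcholine, at -1.14, and Il33, an alarmin cytokine, at -1.84. Etv5, an FGF-responsive factor that type 2 cells share with stem cells, was the 1 member called higher, by 2.12.

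Of 22 alveolar type 1 cell genes, 12 were lower and 4 higher, with a median of -2.25. Ager, a receptor of the flat gas exchange cells, read 11.59, 9.50, 9.79 and 5.91. The 4 higher were Pdpn, a membrane glycoprotein also found on other cells, at 2.24, Cav1, a caveola protein, at 2.36, Rtkn2 at 3.40 and Igfbp2, a binding protein of insulin-like growth factors, at 4.79.

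Ciliated cells move mucus with motile cilia. Their genes were lower in 34 of 43 cases and higher in 0, with a median of -3.03. Sntn, whose promoter stretch is shown above, read 11.12, 5.44, 8.79 and 3.89. Meig1, needed for sperm formation, read 11.15, 6.81, 10.46 and 4.43, and Foxj1, the master factor of motile cilia, 11.19, 7.99, 10.45 and 8.38. For Foxj1 the iPS array was no dimmer than the 3w+Dox array. Gmnc, which starts the making of many cilia, fell by 4.85. Spag6 and Tubb4b, listed for their part in the axoneme, differed by 0.15 and -0.19 and were dim on Day0 and iPS alike. Beyond that list, in families chosen after the values were seen, 20 of 34 genes with symbols in Cfap (cilia and flagella associated proteins) were lower and 0 higher, and of 15 axonemal dynein heavy chains (Dnah) 8 were lower and 1, Dnah8, was higher. GTTGCC, marked in the Sntn and Dynlrb2 stretches, was in 18 of 38 promoters of the ciliated cell list (47.4%) and in 11.7% of all promoters.

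The transcription factors of lung epithelium were lower for 16 of 31 measured members and higher for 2, Etv4 and Etv5, with a median of -2.64. Nkx2-1, which defines the lung lineage, read 11.17, 9.93, 10.07 and 5.94. Foxa1, a pioneer factor of gut-derived epithelia, read 11.63, 10.25, 9.83 and 6.10, and Elf5, an epithelial ETS factor, 11.06, 6.28, 6.73 and 5.20. Nkx2-1 and Foxa1 thus stayed within 4-fold of Day0 in the cultures and were far lower on iPS, whereas Elf5 was low on all 3. Ehf, another ETS factor, fell by 5.03 and Cebpa, a factor of secretory maturation, by 4.44. Klf5, which serves both airway epithelium and naive pluripotent cells, read 11.98, 10.10, 10.57 and 11.97 and so did not differ between Day0 and iPS. Next to Nkx2-1 on the chromosome, Sfta3-ps and C87198 were called lower too, by 6.96 and 3.60.

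Epithelial identity genes gave mixed counts. Of 42 measured epithelial genes, 16 were lower and 5 higher, with a median of -1.19. Epcam, a cell adhesion molecule of both epithelia and pluripotent cells, read 11.19, 10.77, 10.18 and 10.95. Cdh1 (E-cadherin) read 12.56, 12.20, 11.48 and 11.90, and Ovol2, a repressor of mesenchymal genes, differed by 0.11. All 3 lay within 2-fold of Day0 on iPS. The tight junction claudins split, with differences of -6.16 for Cldn8, -3.91 for Cldn18, the lung form, and -3.69 for Cldn3, while Cldn6, a claudin of embryonic epithelia, was higher by 3.38. Cdh3 (P-cadherin) was higher by 3.80 and had been so in the cultures (6.52, 9.70, 9.67 and 10.31). Over the claudin family of 17 measured, 6 were lower (35.3%, beside 5.9% of all named genes) and 1 higher (5.9%, beside 4.89%).

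Markers of other airway lineages went both ways. Of 24 basal and goblet cell genes, 6 were lower and 3 higher, with a median of -0.45. Muc5ac, the gel mucin of goblet cells, read 8.27, 13.00, 8.80 and 4.94, and Clca1, secreted with it, 9.15, 12.02, 5.49 and 6.09. These 2 were brightest on 3w+Dox and not on Day0. Trp63 and Krt14, which define basal cells, differed by 0.04 and 0.10 and were dim on both arrays, and Krt17 was higher by 4.79. Of 20 neuroendocrine and tuft cell genes, 2 were lower and 2 higher.

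The pluripotency network showed the opposite pattern. Of 40 measured genes, 35 (87.5%, beside 4.89% of all named genes) were higher in iPS, 0 were lower, and the median was 4.29. On iPS 38 of 40 lay at or above 6.67, against 10 on Day0, 12 on 3w+Dox and 11 after withdrawal. Nanog, a core factor, read 6.27, 5.83, 5.96 and 12.87. Utf1, a chromatin protein of embryonic stem cells, read 4.88, 5.13, 4.89 and 12.93, the largest increase of all at 266-fold. Tdgf1, the Nodal co-receptor Cripto, read 4.90, 5.79, 5.14 and 12.59. In each the 3 other arrays lay within 2-fold of one another and iPS stood apart.

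The other large increases of the network had the same layout. Nr0b1 (Dax1), an orphan receptor, rose by 6.55, Fbxo15, an F-box protein used as a reporter of reprogramming, by 6.36, and Dppa4 and Dppa2, partner proteins at developmental promoters, by 6.35 and 6.12. Zfp42 (Rex1), a marker of the naive state, read 4.31, 4.37, 4.24 and 8.62. Esrrb, an orphan receptor of naive cells, read 5.20, 5.48, 5.45 and 10.17. Lefty2, an inhibitor of Nodal signalling, rose by 6.24 and Zscan10, a zinc finger partner of Oct4, by 5.95. The 5 members that were not called included Dppa5a, commonly bright in embryonic stem cells, which read 5.08, 4.74, 4.73 and 5.30 and was dim on every array.

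**Figure D4:**
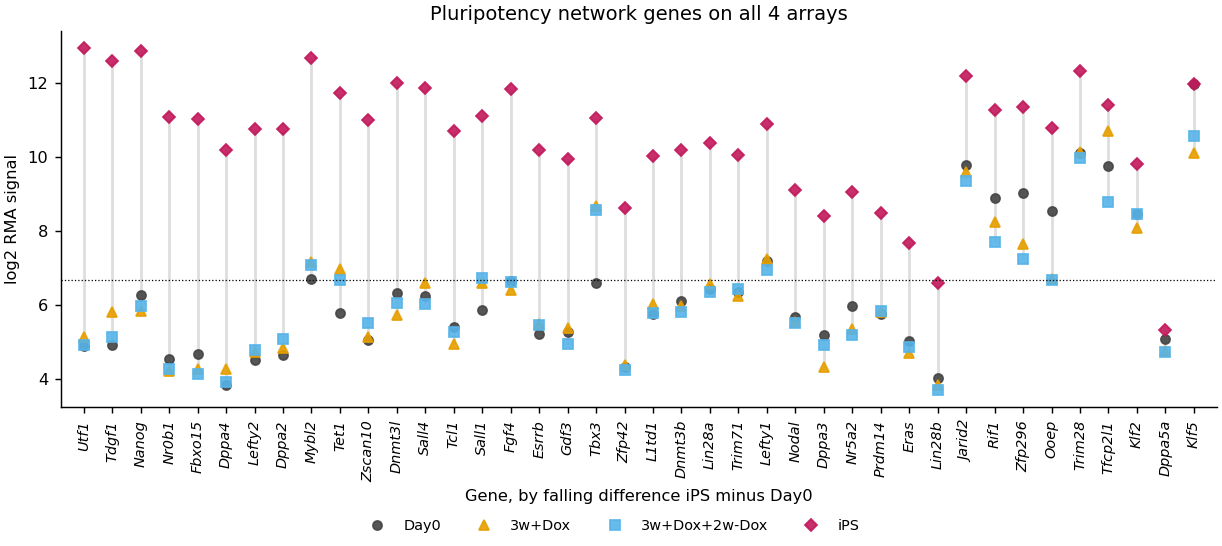
The 40 measured genes of the pluripotency network, ordered by their difference between iPS and Day0, with the log2 RMA signal on each of the 4 arrays up; the dotted line marks 6.67. The iPS array is the highest for the genes on the left by a wide gap, with the other 3 arrays close together below it; at the right end Dppa5a is low on all arrays and Klf5 reads 11.98 on Day0 and 11.97 on iPS.

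Of the 4 reprogramming factors 2 were called higher, and their median was 1.77. Pou5f1 read 6.20, 6.51, 5.87 and 8.87, and was the only 1 of the 4 that was below 6.67 on all arrays but iPS. Klf4 read 8.60, 10.72, 9.44 and 10.67. Sox2, also a factor of airway epithelium, read 10.65, 8.44, 8.85 and 12.07, a difference of 1.42. Myc read 7.62, 10.79, 9.75 and 9.09, a difference of 1.47, with its highest value on 3w+Dox. Sox2, Klf4 and Myc were thus brighter than 6.67 before any culture. Whether the probe sets also read RNA from transgenes was not tested.

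The joint Sox2 and Oct4 motif shown for Nanog was searched on both strands in the 250 bases before the start of 17452 genes with a promoter sequence, as 1 of 14 motifs that were chosen after the values were seen. It was found in 1 of 27 pluripotency promoters and in 1 of all 17452, the Nanog promoter itself, 62 bases before the start. The plain Oct4 octamer ATGCAAAT matched 2 of the 27 (Zfp296 and Zfp42) and 1.78% of all promoters. The shorter ATGCAAA, which overlaps both, matched 3 of 27 (11.1%) and 4.44% of all, and TCAAGGTCA, the motif of Esrrb, matched 0 of 27 and 0.338%. A match describes the letters in the window and is not a binding site.

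Nanog also lies in the run of 4 neighbouring genes that were higher together: Gdf3, Dppa3, Nanog and Slc2a3, with a median of 5.64. Gdf3, a growth factor of the BMP family, rose by 4.68, and Slc2a3, the glucose transporter Glut3, by 6.83. Slc2a3 read 6.06, 9.88, 10.36 and 12.89, and so differed from its neighbours by being bright in the cultures as well. A second run joined Triml1, Triml2 and Zfp42 with a median of 4.31. Another run held the KRAB zinc finger genes Zfp985, Zfp979 and Zfp534, with differences of 4.67, 6.40 and 5.24. Zfp981, another of this kind, rose by 7.08 (4.50, 3.88, 4.05 and 11.57). These zinc finger genes have near-identical copies, so their separate values are uncertain.

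Genes of the primed state and of early germ layers went both ways, with 7 of 27 higher (25.9%), 3 lower (11.1%) and a median of 0.70. Of all named genes 4.89% were higher and 5.9% lower. Otx2, a factor of the exit from the naive state and of forebrain, read 6.10, 5.65, 5.90 and 11.70. Zic2 rose by 3.57, Eomes, a mesendoderm factor, by 2.23, and Fgf5, a marker of the primed epiblast, by 2.13. Among the losses Foxa2 and Gata6, endoderm factors also active in lung, fell by 3.73 and 3.07. Cdx2, a trophectoderm and hindgut factor, and Afp, a yolk sac protein, differed by 0.18 and -0.05 and were dim on both arrays. Of 15 early cleavage genes only Zscan4e was called higher (6.7%, beside 4.89% of all named genes), from 4.23 on Day0 to 7.83 on iPS. None of 38 measured Hox genes, another family chosen after the values were seen, was called, and 4 of them passed the brightness filter.

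Germline genes were higher for 18 of 42 measured members and lower for 1, with a median of 1.90. Tfap2c, a factor of primordial germ cells that also acts in naive cells, read 5.15, 4.35, 4.85 and 10.54. Dazl, an RNA-binding protein of germ cells, read 4.63, 4.71, 4.83 and 9.44, and Mael, which acts in transposon silencing, 4.24, 4.21, 4.29 and 8.84. All 3 were dim on each of the other arrays. Kit, a receptor of stem cell factor, rose by 4.81, Trap1a, an X-linked antigen, by 4.96, Tdrd12, of the piRNA pathway, by 4.59 and Stag3 by 4.44. Sycp1 (0.11), of the synaptonemal complex, and Brdt (0.06), the uncalled members with the smallest differences, were dim on every array. Taf9b, a TFIID subunit, was the 1 lower, by 2.45. The E-box CACGTG was in 13 of 36 germline promoters (36.1%) and in 7.79% of all promoters. Both Sycp1 and Brdt were among the 13, with Mael and Stag3, and the longer TCACGTGA was in 0 of 36 and 1.2% of all promoters. In the X-linked Rhox homeobox cluster, Rhox5 (4.01) and Rhox9 (3.61) were higher among 9 measured genes, and Rhox10 and Rhox11 differed by -0.03 and -0.18.

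Few microRNA genes gave a usable signal. Of 39 measured in the list, 4 passed the brightness filter and 1, Mir290a, was called higher (2.6%, beside 4.89% of all named genes). Mature sequences were taken from RefSeq for 36 of them. Mir290a read 3.32, 2.92, 2.55 and 8.04. Mir19a went from 3.47 to 6.55 and Mir19b-1 from 3.77 to 5.83, below the filter on both arrays. Mir302c (2.68 and 4.58), Mir302b (2.92 and 4.03), Mir302d (3.62 and 4.07) and Mir367 (2.74 and 2.77) were dim on Day0 and iPS. Mirlet7d, of the let-7 family that opposes pluripotency, differed by 0.02. The list's median was -0.09 and its mean 0.31. These probe sets read the gene's transcript, and the amount of mature microRNA was not measured.

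RNA-binding proteins that oppose let-7 or mark early development rose together with Mir290a. Lin28a, which blocks let-7 processing, read 6.43, 6.55, 6.35 and 10.38. Trim71, itself a let-7 target, rose by 3.72, and Igf2bp1 and Igf2bp3, oncofetal mRNA-binding proteins, by 4.67 and 4.19. Igf2bp3 had an intermediate signal in the cultures (6.08, 8.37, 8.56 and 10.27). Over the list of splicing and RNA-binding regulators, 7 of 34 were higher (20.6%, beside 4.89% of all named genes) and 3 lower (8.8%, beside 5.9%). Son (0.06) and Srsf3 (-0.08), general splicing proteins, were the uncalled members with the smallest differences, and 18 of the 34 lay within 2-fold.

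Proliferation genes were higher as a body. Of 43 mitosis genes 40 were higher and 0 lower, with a median of 3.87. The other 3, Bub3 (1.09) and Pttg1 (1.95) among them, were more than 2-fold higher. Mybl2, a factor of mitotic gene transcription, read 6.70, 7.16, 7.07 and 12.67. Bub1, a spindle checkpoint kinase, read 5.98, 7.08, 6.70 and 11.15, and Mki67, the proliferation marker Ki-67, 7.71, 8.94, 8.60 and 11.43. In each the cultures were above Day0 by less than 4-fold and iPS was far higher. Kif11 and Kif2c, mitotic kinesins, each rose by 4.59. In the kinesin family, chosen after the values were seen, 12 of 38 were higher and 3 lower, beside 4.89% and 5.9% of all named genes. The 3 lower, a share near that of all named genes, were Kif9 (-3.07), Kif27 (-2.37) and Kif19a (-2.05), which are linked to cilia. TTTGAA, marked in the Kif11 stretch, was in 13 of 35 mitosis promoters (37.1%) and in 16.1% of all promoters, and the longer TTTGAAAC, which contains it, was in 2 of 35 (5.71%) and 1.04%.

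DNA replication genes were higher in 33 of 42 cases, with 0 lower and a median of 2.84. Orc1, of the origin recognition complex, read 4.98, 5.64, 5.15 and 9.85, and Mcm10, which starts the replication fork, 6.51, 6.89, 6.65 and 11.06. Pcna, the sliding clamp, was bright on Day0 already (11.95) and differed by 1.08. Of 40 DNA repair genes 26 were higher and 0 lower, with a median of 2.46. Blm, a helicase, rose by 4.64, Fanci, of the Fanconi pathway, by 4.59 and Ung, which removes uracil, by 4.49, whereas the excision factor Ercc1 differed by 0.57. Of motifs read by the E2F factors of S phase, TTTCCCGC was in 5 of 36 repair promoters and 1.35% of all, GGCGGGAA in 4 of 34 replication promoters (11.8%) and 2.79%, and TTTGGCGC in 3 of 34 (8.82%) and 0.642%. The 14 motifs are completed by a pair of full-length X-boxes, each in 1 of 38 ciliated cell promoters, Pifo and Sntn, and in 0.332% and 0.338% of all.

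Regulators of cell cycle entry were less uniform, with 6 of 34 higher (17.6%), 4 lower (11.8%) and a median of 0.62. All 34 passed the filter, and of the kept genes 8.5% were higher and 10.3% lower. Ccne1 (cyclin E1) read 6.39, 8.25, 8.22 and 11.29. E2f8 rose by 4.01 and E2f1 by 3.20, while Gadd45g, a growth arrest gene, fell by 3.22. Btg2, an antiproliferative gene, fell by 2.49 and the inhibitor Cdkn2c fell by 2.42. Cdk6 (0.11) and Rb1 (0.02) were level. The reprogramming barrier Cdkn2a read 6.85, 8.11, 8.57 and 7.12, and Cdkn1a (p21) 11.09, 13.33, 13.37 and 12.60. Both inhibitors were highest in the cultures and were not called between Day0 and iPS.

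Among 18 DNA methylation genes 7 were higher and 0 lower, with a median of 1.80. Tet1, which oxidises methylcytosine, read 5.76, 6.97, 6.66 and 11.72. Dnmt3l, the cofactor of new methylation in germ and stem cells, read 6.30, 5.73, 6.04 and 12.00, and Dnmt3b, a methyltransferase, 6.09, 5.97, 5.81 and 10.19. Hells, a remodeller needed for methylation, rose by 4.66, Uhrf1, which maintains it through division, by 3.79, and Zfp57, which protects imprints, by 2.79. Tdg, a glycosylase, was listed at 4.38 and 4.51. Of 40 Polycomb and Trithorax genes 9 were higher (22.5%) and 1 lower (2.5%), with a median of 0.84. Utf1, also in the pluripotency list, was among the higher ones. Ezh2, the histone H3 methyltransferase, rose by 2.28, Suz12, its partner, by 2.31, and Mtf2 and Jarid2, accessory subunits, by 3.07 and 2.40, while Ezh1, the form of resting cells, differed by 0.03. Smarca2 (Brm), a remodeller ATPase of differentiated cells, fell by 3.44. It was the 1 lower of 42 chromatin remodelling and heterochromatin genes (2.4%, beside 5.9% of all named and 10.3% of kept genes). The 4 higher (9.5%, beside 4.89% and 8.5%) were Suv39h2, H2ax, Smarcd1 and Tet1, which is also in the DNA methylation list.

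Imprinted genes, expressed from 1 parental allele, were higher for 11 of 45 (24.4%), lower for 3 (6.7%) and had a median of 0.62. Of all named genes 4.89% were higher and 5.9% lower, so the share of lower members is near that of all genes. Peg3, a paternally expressed zinc finger gene, read 6.87, 10.52, 9.88 and 12.18. H19, a maternal noncoding RNA, read 6.78, 11.51, 11.28 and 10.75, Mest 6.12, 11.02, 10.62 and 10.87, and Meg3, the maternal noncoding RNA of the Dlk1 region, 5.74, 8.53, 9.67 and 8.85. H19 and Mest were thus within 2-fold of both cultures on iPS. Zdbf2 (6.26, 6.53, 6.14 and 10.36) and Peg10 (7.58, 7.57, 7.75 and 11.46) were high on iPS alone. Kcnq1, a potassium channel, fell by 4.09, and Ube3a and Nnat differed by -0.06 and -0.08. Next to Peg3, Zim1 and Peg3os were called higher as well. Allelic expression was not measured.

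Of 9 sex-linked marker genes 3 were lower on iPS and 0 higher, and the 3 lie on the Y chromosome. Eif2s3y, a translation factor, read 9.31, 7.67, 7.84 and 5.05, Kdm5d, a demethylase, 8.08, 6.52, 6.83 and 3.95, and Uty 8.90, 7.51, 7.95 and 5.02. Xist, the RNA that silences an X chromosome in female cells, read 5.45, 9.87, 10.39 and 7.25, and its iPS difference of 1.80 was not called. Day0 was thus highest for these 3 Y-linked genes and lowest for Xist, and iPS was lowest for the 3. The Y-linked Zfy2 was dim on every array, at 3.52 on Day0 and 3.37 on iPS. The sex of the source animals is not in the labels, and how far it enters the other differences was not tested.

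Called metabolic genes were a minority in each pathway. Their shares stand beside 4.89% of all named genes higher and 5.9% lower, and beside 8.5% and 10.3% of the kept genes. Of 26 glycolysis genes 4 were higher (15.4%) and 1 lower (3.8%), with a median of 0.83. The higher were Slc2a3, Pfkp, a phosphofructokinase, by 2.82, Pgam1 by 2.15 and the lactate exporter Slc16a3 by 2.09. Pcx, pyruvate carboxylase, was lower by 2.92. Slc16a3 and Pfkp were raised in the cultures too (8.50, 10.91, 10.69 and 10.59 for Slc16a3). No oxidative phosphorylation gene was called among 37, and 32 lay within 2-fold. In serine, glycine and folate metabolism 6 of 35 were higher (17.1%) and 1 lower (2.9%). Gldc, the glycine decarboxylase, read 5.83, 5.77, 5.47 and 11.28. Mthfd2, a mitochondrial folate enzyme, rose by 3.87, Psat1, of serine synthesis, by 2.87 and Asns by 2.56, while Mat1a, the liver-type synthase of S-adenosylmethionine, fell by 4.94. Gldc was at its Day0 level in the cultures, in contrast to Mthfd2 (6.47, 9.58, 9.43 and 10.34). Lipid synthesis held 1 higher (3.2%) and 2 lower (6.5%) of 31, near the shares of all named genes and below those of kept genes. They were Elovl6 at 2.38, Elovl1 at -2.07 and Scd1 at the edge of the call (12.52 on Day0 and 10.52 on iPS).

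Ribosome biogenesis genes were mostly higher, with differences from 0.15 to 2.73. All 44 measured were brighter than 6.67 on Day0, and 40 were at least 2-fold higher on iPS (beside 13.1% of all named genes). Of them 13 passed 4-fold (29.5% of the list, beside 4.89% of all named genes). None was lower, and the median was 1.85. Lyar, a nucleolar protein of stem cells, rose by 2.73, Heatr1 by 2.62 and Dkc1, the pseudouridine synthase, by 2.35. Small nucleolar RNAs, which guide the modification of ribosomal RNA, and nucleoporins were read as families chosen after the values were seen. Of 34 H/ACA RNAs 15 were higher and 0 lower, with a median of 1.81, and of 65 C/D RNAs 17 were higher and 0 lower, with a median of 1.25. Snora34 read 7.18, 6.79, 5.91 and 11.09. Of 22 nucleoporins 11 were higher and 0 lower, with a median of 1.92. Most such RNAs lie in introns of host genes, as in the run Snhg4, Mir1949 and Snora74a, and signal of the host cannot be told apart from theirs.

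Immediate early and heat shock genes, which respond within minutes to stress and handling, were lower in 13 of 28 cases and higher in 1, with a median of -1.78. Fos read 12.71, 11.43, 11.33 and 7.56, Fosb 12.07, 11.02, 11.19 and 6.58, and Egr2 11.92, 10.09, 9.96 and 6.78. Hspa1a, the inducible Hsp70, read 12.53, 9.65, 9.08 and 7.20, and Atf3 fell by 4.80. Day0 was the highest array for these 5 genes and iPS the lowest. Hspa8, the constant form of Hsp70, differed by 0.27. The 1 higher was Ccn2, a matricellular protein, at 2.15.

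Defence genes of the airway were lower as well. Of 44 innate defence, complement and toll-like receptor genes 16 were lower and 1 higher, with a median of -0.93. Reg3g, a bactericidal lectin, read 12.14, 8.80, 12.00 and 4.55. Bpifb1, a partner of Bpifa1, fell by 7.43, Lyz1, a lysozyme, by 6.16 and Cxcl17, a mucosal chemokine, by 5.95. Ltf, lactoferrin, was higher in the cultures than on Day0 and low on iPS (11.06, 13.25, 12.36 and 5.40). Interferon response genes were lower in 6 of 46 cases and higher in 0, with a median of -0.78. The lower share was 13.0%, beside 5.9% of all named genes and 10.3% of the kept genes. The lower ones included Isg20 (-4.17), Usp18 (-4.07), Ifih1, a sensor of viral RNA (-3.93), and Sting1 (-3.19). Ifnar1, a receptor chain, differed by 0.10. Of 23 antigen presentation genes 7 were lower and 0 higher. H2-Aa, an MHC class II chain, read 9.60, 8.96, 10.01 and 3.96, Cd74, its chaperone, 12.71, 12.24, 13.13 and 9.04, and H2-D1, a class I chain, 13.02, 12.94, 12.88 and 10.34. The class I genes H2-D1 and H2-K1 (-2.41) stayed bright on iPS, and H2-Aa did not. Of 33 apoptosis genes 3 were higher (9.1%, beside 4.89% of all named genes) and 4 lower (12.1%, beside 5.9%), with a median of -0.69. As 31 of the 33 passed the filter, the closer reference is the kept genes (8.5% and 10.3%), and both shares are near it. Casp4, Casp8 and Casp1 had differences of -4.34, -2.86 and -2.67 and Casp9 of 0.09, while Apaf1, of the apoptosome, rose by 3.12 and Birc5 (survivin) by 4.15.

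The signalling lists held called genes in both directions. In FGF and ERK signalling 7 of 31 were higher (22.6%, beside 4.89% of all named genes) and 5 lower (16.1%, beside 5.9%), with a median of 0.87. Fgf4, an autocrine factor of pluripotent cells, read 6.64, 6.38, 6.61 and 11.83, and Spry4, a feedback inhibitor, 7.19, 10.37, 10.84 and 11.24. The receptors Fgfr3 and Fgfr2 fell by 4.69 and 3.12 and the ligand Fgf1 by 4.26, and Fgf7, a mesenchymal ligand, was higher on iPS (8.17) than on Day0 (5.13) but highest in the cultures (10.26 and 10.43). Of 34 LIF, STAT3 and BMP genes 2 were higher (5.9%, beside 4.89% of all named genes) and 4 lower (11.8%, beside 5.9%). All 34 passed the filter, and these shares stand beside 8.5% and 10.3% of the kept genes. Bmp7 stood at 3.18, Bmp4 at -2.35 and Il6ra at -4.01. Of 46 WNT and Notch genes, 36 of them kept by the filter, 4 were higher (8.7%) and 6 lower (13.0%). The WNT inhibitors Sfrp1 (8.16, 12.32, 11.97 and 11.19) and Sfrp2 were higher, and the Notch targets Nrarp (-3.15) and Hes1 (-2.71) and the ligand Jag1 (-2.25) lower. In the nuclear receptor family, chosen after the values were seen, 14 of 42 were lower, Pparg (-4.57), Rarb (-4.42) and Thrb (-4.34) among them, and the 3 higher were Nr0b1, Esrrb and Nr5a2.

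Connective tissue genes were higher on iPS, as a list that also serves as the marker list of fibroblasts and feeder cells. Of 31 measured, 18 were higher and 0 lower, with a median of 3.02. Timp1, an inhibitor of matrix proteases, read 5.45, 12.49, 12.59 and 11.42, Mmp2, a gelatinase, 5.23, 12.40, 12.89 and 11.07, and Lox, which crosslinks collagen, 5.78, 13.26, 13.21 and 11.47. Col1a1, the main collagen chain, read 6.73, 12.84, 12.53 and 9.76, and Vim, the mesenchymal filament protein, 9.17, 13.54, 13.59 and 12.97. In these 5 genes Day0 was lowest, the cultures were highest and iPS lay between them. Prrx1, a mesenchymal factor, rose by 4.29 and Fn1, fibronectin, by 5.26. Meox2, bright in the cultures (9.09 and 9.87), was not bright on iPS (5.10), and Tcf21, of lung mesenchyme, was dim on Day0 and iPS. Mmp13, the collagenase among the 20 largest increases, had the same layout (3.85, 10.86, 11.56 and 9.85), and Crabp1, a retinoic acid-binding protein, read 6.22, 12.00, 12.87 and 12.56. In the matrix metalloproteinase family, chosen after the values were seen, 7 of 22 were higher and 0 lower.

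Of 28 macrophage and myeloid genes 2 were higher and 2 lower, with a median of 0.09. Each share was 7.1%, near the 4.89% and 5.9% of all named genes. Ptprc (CD45) read 4.70, 7.44, 7.27 and 4.51, Adgre1, a surface receptor of mouse macrophages, 5.72, 9.78, 9.88 and 5.75, and Csf1r, a growth factor receptor, 6.83, 9.29, 8.97 and 6.74. C1qb, a complement chain, read 6.30, 11.32, 11.33 and 7.27. All 4 were higher in the cultures than on Day0 or iPS, and none was called between the latter. The summed linear signal of the list was 10578, 26686, 39261 and 5746. Bright genes weigh most in such a sum, and Cd74 read 12.71 on Day0 and 9.04 on iPS. The gap of the sum between Day0 and iPS thus does not reflect the 4 genes above. Laptm5, a lysosomal protein of blood cells, was higher by 3.12, while Cd74 and Cd14 fell, with differences of -3.67 and -3.53. None of 18 lymphocyte or 7 erythroid genes was called. Of 20 endothelial genes 3 were higher and 1 lower, with a median of 0.46: Pecam1, known in embryonic stem cells too, read 5.50, 5.56, 5.53 and 9.22, Eng rose by 4.49, and Kdr read 11.57, 5.89, 6.12 and 6.04. Cdh5 and Tie1, the defining endothelial markers, differed by 0.47 and 0.27.

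**Figure D5:**
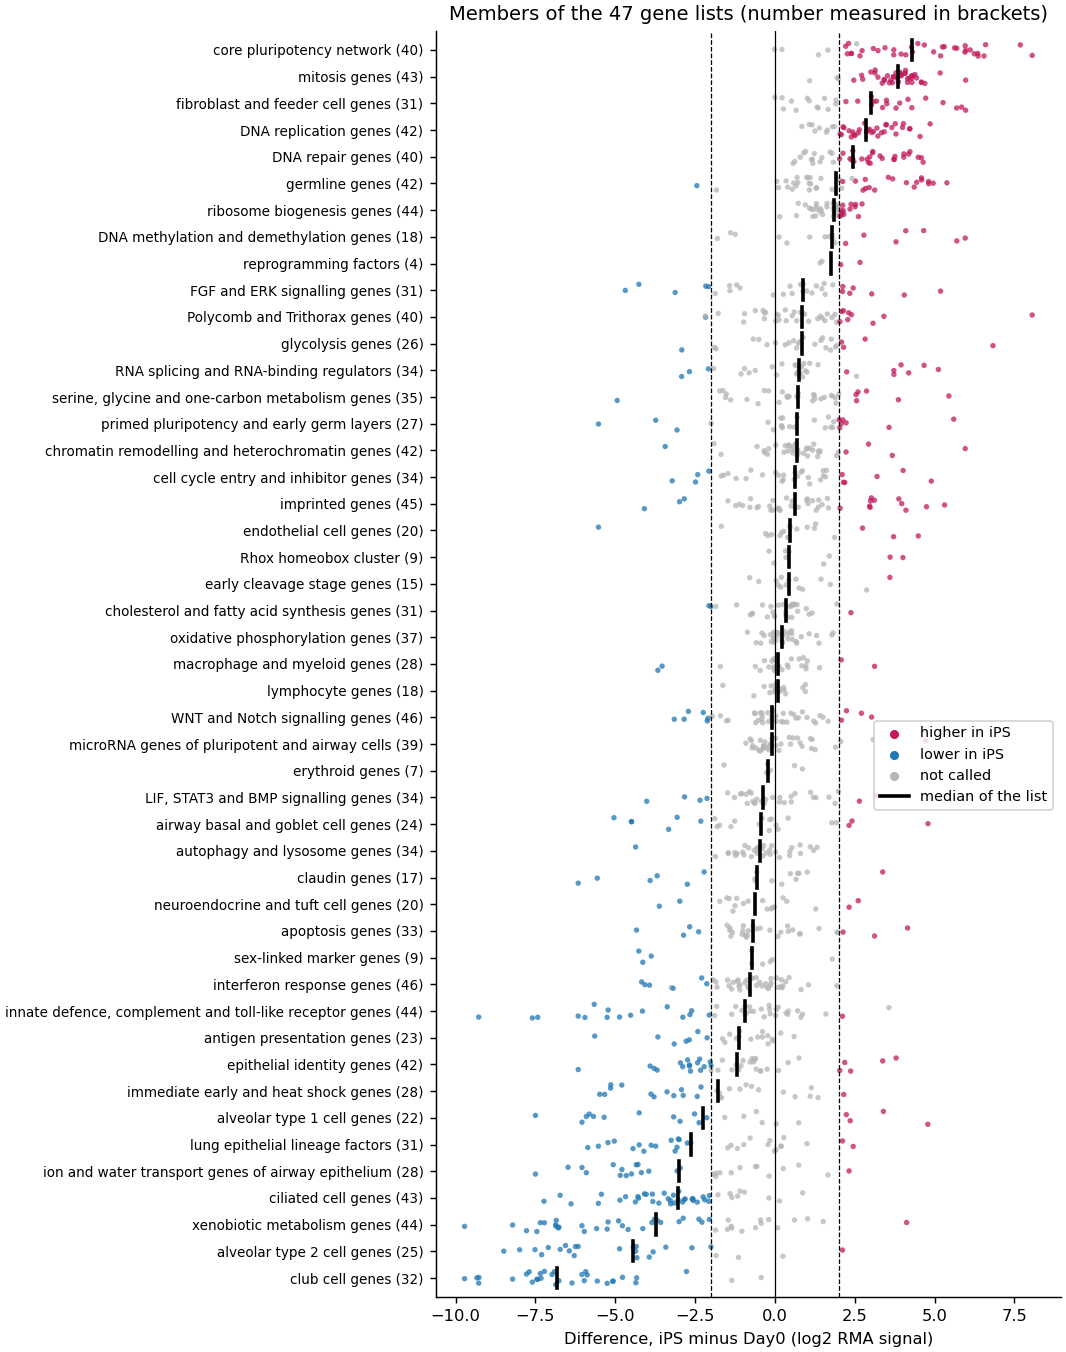
Differences between iPS and Day0 (log2 RMA signal, across) for the measured members of all 47 gene lists (rows, ordered by median), 1 point a gene, with the list's median as a black bar and dashed lines at a 4-fold difference; vertical scatter within a row has no meaning. The pluripotency (median 4.29) and mitosis (3.87) lists stand at the top and the club cell (-6.81) and alveolar type 2 (-4.44) lists at the bottom, and the signalling lists in the middle have called genes on both sides.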

How the data were processed

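RNA of 4 populations was measured on 4 Affymetrix arrays, prepared with RNeasy columns and the Ambion WT kit per the labels' protocols. The deposited values are on the log2 scale and were made by the authors with RMA (affy, R 3.0.2), per the submitters' processing notes. RMA sets the arrays to 1 distribution, so a change in RNA per cell cannot show. No source used here gives the probe set annotation or build. Symbols came from the platform annotation (1 probe set a gene), and 2021 unnamed probe sets were left out.

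Differences, iPS minus Day0, were computed with Python 3.11.15, pandas 2.3.3 and numpy 2.4.6, with no further normalization. The rule for calls was also run on simulated data with an assumed noise. That run checks the code and cannot give the error of these arrays. The 47 lists hold 1475 genes, of which 1368 were measured, 14 under a RefSeq synonym, and some share members. The members and lists were chosen with earlier results of these data known. Named genes are the 20 largest differences each way (no predicted genes, receptor families or small RNAs), a fixed marker set and runs of neighbours. From each list come up to 6 called members with the largest differences and up to 2 uncalled members with the smallest. Such uncalled members are level by selection and do not stand for their group. Other names were added after their values were seen, such as further list members that complete a count. Alternatives were other thresholds, filters and scalings.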

Additional observations from a re-analysis of the deposited data

Results flagged for a closer look

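Probe sets with no gene symbol took no part in the comparison by gene, and some carried large signals. Of the 2021 of them, 61 (3.02%) were at least 4-fold higher on iPS than on Day0 and 71 (3.51%) were lower, with differences from -8.08 to 6.92 on the log2 scale. These shares stand beside 4.89% and 5.9% of the named genes.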

How the results depend on the processing

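No paired analysis was possible because each population has 1 array. At a 2-fold threshold 3038 genes were higher and 2885 lower, and at 8-fold 543 and 632, as a threshold must move a count. The counts stayed within 1.5 times of 1134 and 1368 with no brightness filter, with a filter at the 75th percentile, after a second quantile normalization, with the arrays centred on their brighter genes, and with a floor at the 25th percentile. The filters reuse the same differences, and a floor cannot reverse a sign. The second quantile normalization and the centring shifted the median gene by only 0.0011 and 0.0131. A change of direction was thus hardly possible, and none of the 334 named genes showed one as a called gene. Under the 75th percentile filter some dim ones lost their call, Zfp42, Eomes, Zscan4e, Mir290a, Kdm5d and Muc5ac among them, and Scd1 and Casp1, at the edge of the rule, lost theirs under other scalings or the raised floor. Of the 47 list medians, 9 moved by at least 0.5 over members that passed the filter. With the mean in place of the median 5 moved, over members in no other list 5, and with the floor 3. Under either scaling 0 moved, and shifts as small as these could hardly move them. The lymphocyte median changed sign, from 0.08 to -0.34, over members that passed the filter. No replicate can be left out, and differences of genes near background are the least certain.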
